A study of Homo sapiens with 12 samples.

Results

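TSPAN14-targeted endothelial cells were compared with control cells, both grown on the Notch ligand DLL4. The comparison took the 2 TKO libraries and the 2 NT libraries from the DLL4 coating, chosen by the names of their columns, or 4 of the 12 libraries of the study. All cells are TeloHAEC, endothelial cells from human aorta that telomerase has made immortal, kept at the same passage. The TKO line was made with Cas9 and a guide RNA against TSPAN14. The NKO line, made the same way against NOTCH1, enters here with its DLL4 libraries, as a second edited line. The NT line carries the genotype label wild type. Plates were coated with DLL4, or with IgG as the control coating, each at 2.5 mg/mL, and RNA was taken after 24 hours. Each line and coating has 2 libraries of polyadenylated RNA, purified from 140 ng of total RNA. The sources used here do not say whether a line is 1 clone or a pool of edited cells. Each library is labelled as a biological repeat, but whether that means a separate culture is not stated. The p-values therefore measure only the spread between these libraries, and how much of it is technical is unknown. What the editing of TSPAN14 did and what else differs between the lines cannot be told apart, because each genotype is a single line.

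Notch receptors are activated by a ligand on a neighbouring surface, which exposes the receptor to cleavage by the membrane protease ADAM10. Gamma-secretase then frees the intracellular part, which joins the DNA-binding protein RBPJ and switches on genes such as those of the HES and HEY families. TSPAN14 belongs to the TspanC8 tetraspanins, a small family of membrane proteins that bind ADAM10, carry it to the cell surface and influence which substrates it cuts. In endothelial cells DLL4 and Notch restrain tip cell behaviour in sprouting vessels and take part in arterial identity.

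The values are TPM, which give each gene's transcripts as a share of all transcripts of its library. TPM hold no read counts, and how deeply each library was sequenced is unknown. Of 35587 symbols, 13299 reached 1 TPM in at least 2 of the 12 libraries and were tested as log2(TPM + 1) with limma, and a gene is called when its Benjamini-Hochberg adjusted p is under 0.05. Differences below are on that log2 scale, TKO minus NT, with the standard error of the fit, unless another pair is named. For a gene under 1 TPM in one line the size of the difference is set largely by the added 1, so its TPM are the better guide. Pearson's r over the tested genes was 0.987 to 0.992 within a group, and 0.949 to 0.951 between a TKO and an NT library on DLL4. The cells carried the endothelial markers in both lines. PECAM1, an adhesion molecule of endothelial junctions, was at 364 and 339 TPM in TKO cells, against 451 and 399 TPM in NT cells, and CDH5, the cadherin of those junctions, at 262 and 247 TPM in TKO cells, against 349.6 and 318 TPM in NT cells. All 30 endothelial identity and junction genes were measured above the filter. Of the erythroid markers none was tested. Of 16 leukocyte markers 4 were tested, and PTPRC, the pan-leukocyte marker, stayed below the filter. CD68, one of those tested, was at 48.5 and 54.5 TPM in TKO cells, against 43.9 and 44.4 TPM in NT cells, and was not called.

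On DLL4 the lines differed in 3543 genes, or 26.6% of those tested. TKO cells were higher in 2147 (16.1%) and lower in 1396 (10.5%). Counts of gene lists below are to be read beside these shares, and those on IgG beside 15.2% higher and 12.4% lower. By size, 603 genes were called at least 2-fold higher in TKO cells and 483 at least 2-fold lower, 153 and 152 at least 4-fold, and 22 and 14 at least 16-fold. In all 3543 called genes the 2 TKO libraries lay on one side of the 2 NT libraries. That alone holds for 65.2% of all genes tested. The median over all genes was 0.03. For any one gene, permuting 2 against 2 exactly has 0.333 as its smallest two-sided p, so the calls rest on a spread pooled over the 12 libraries. Leaving out 1 of the 4 libraries lowered the count to between 2315 (without TKO library 2) and 2653, and TKO library 2 was the only one whose absence moved it by over 1.5 times.

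**Figure D1:**
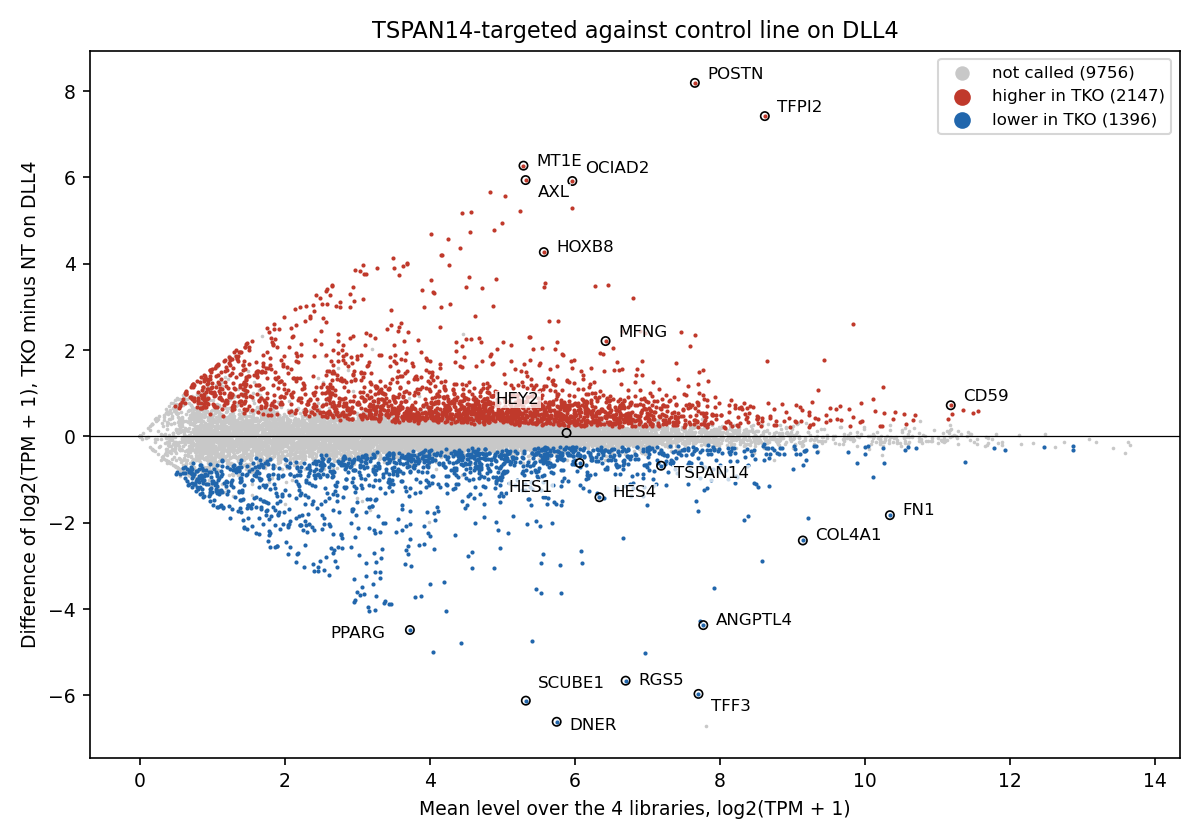
Mean level over the 4 DLL4 libraries, log2(TPM + 1), on the horizontal axis, and the TKO minus NT difference on the vertical axis, 1 point per tested gene. Red points are the 2147 genes called higher in TKO cells and blue points the 1396 called lower. POSTN and TFPI2 stand at the top, DNER, SCUBE1, TFF3 and RGS5 at the bottom, and the Notch targets HES4 and HES1 lie below 0 while HEY2 lies close to it.

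The line difference varied by chromosome. Over protein-coding genes with a mean of at least 5 TPM, the median TKO minus NT difference was 0.59 for 586 genes of chromosome 11, 0.48 for 131 genes of chromosome 18 and 0.49 for 98 genes of chromosome 21. In linear terms these medians are 1.51-fold, 1.4-fold and 1.4-fold. Over the 8465 such genes of all other chromosomes the median was 0.02. Each TKO library showed it against the NT mean, with 0.60 and 0.58 on chromosome 11, 0.53 and 0.46 on chromosome 18, and 0.55 and 0.43 on chromosome 21. The elevation ran along each chromosome as far as windows of 40 neighbouring genes covered it. All 28 windows of chromosome 11, all 5 of chromosome 18 and all 3 of chromosome 21 had a median of at least 0.39, while the 395 windows elsewhere lay between -0.15 and 0.20. The last full windows ended at 130916509 on chromosome 11, 74160530 on chromosome 18 and 44339402 on chromosome 21. Genes past those ends were in no window.

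Of the 1047 tested genes on chromosomes 11, 18 and 21, 639 (61.0%) were called higher in TKO cells and 55 (5.25%) lower. Elsewhere 1508 of 12252 were higher (12.3%) and 1341 lower (10.9%). These 3 chromosomes thus hold 29.8% of all higher calls. On IgG, in libraries that the DLL4 comparison does not use, the TKO minus NT medians were 0.53, 0.52 and 0.48. Within chromosome 11 a stretch from 93741591 to 118399211 (GRCh38), picked because its windows had medians above 1, held 60 genes with a median of 1.08, against 0.58 for the other 526. In that stretch TKO cells lay 0.34 above NKO cells, and NKO cells 0.83 above NT cells, both medians on DLL4. These differences share libraries with the TKO minus NT difference. Over the rest of chromosome 11 the medians were 0.55 for TKO minus NKO and 0.05 for NKO minus NT. The number of chromosome copies was not measured, and its part in any gene's difference was not tested. A refit without the genes of chromosomes 11, 18 and 21, with each library rescaled, was added after the values were seen and called 2827 genes, 1700 higher and 1127 lower. Where a list below has many members on these chromosomes, their number is given beside it.

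**Figure D2:**
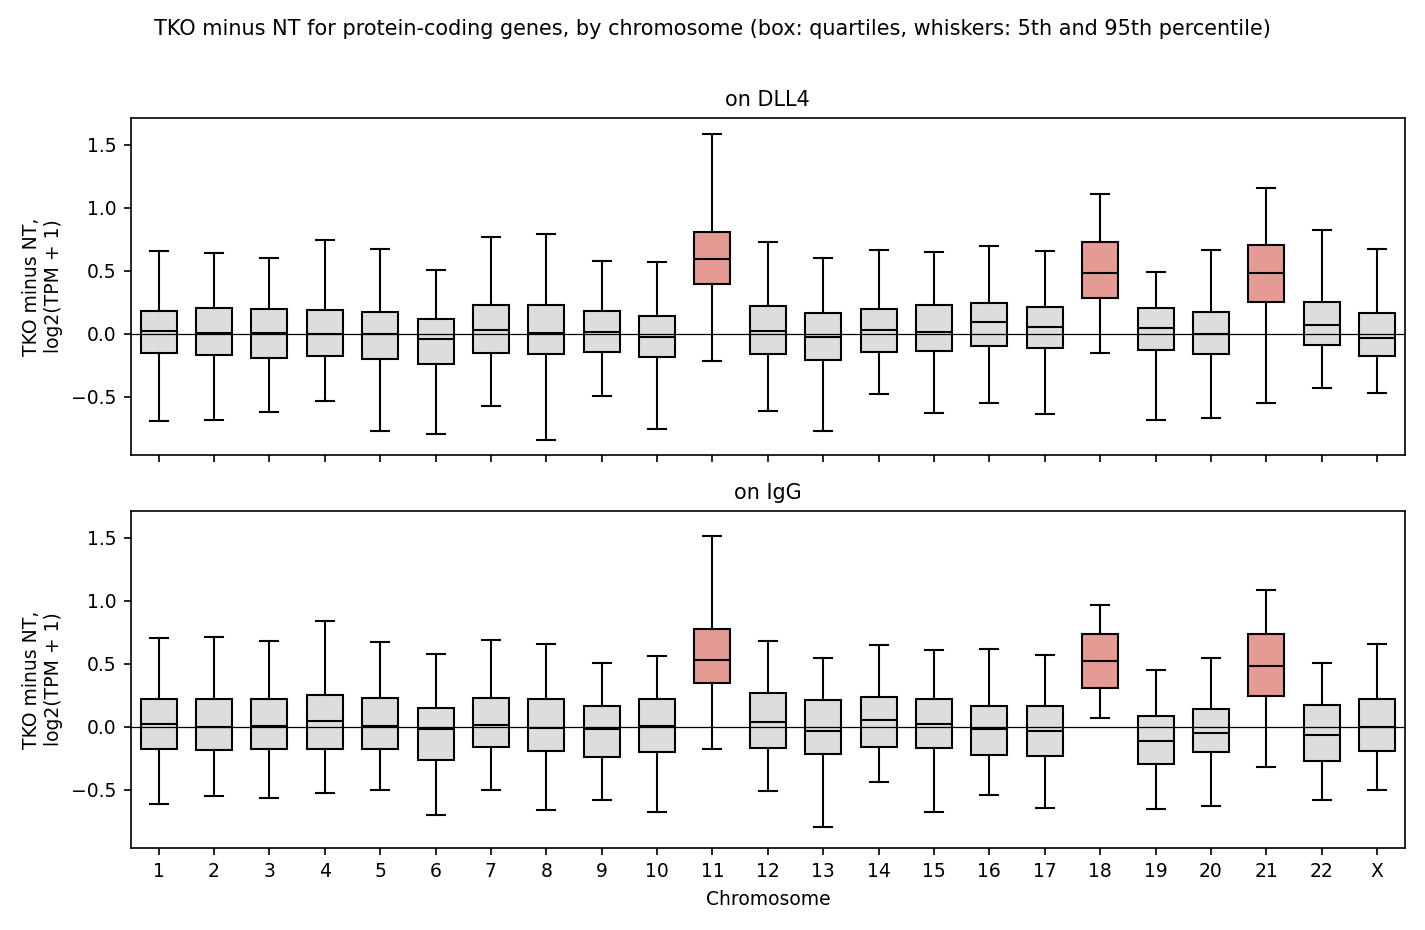
TKO minus NT difference of log2(TPM + 1) for protein-coding genes with a mean of at least 5 TPM, by chromosome, on DLL4 above and on IgG below. Boxes span the quartiles, the line is the median and the whiskers reach the 5th and 95th percentile. The medians of chromosomes 11, 18 and 21, in red, stand above those of every other chromosome on both coatings.

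The targeted gene was lower in TKO cells but still measured. TSPAN14, on the plus strand of chromosome 10 at 80454166 to 80533123 (GRCh38), was at 113 and 109 TPM in TKO cells, against 186 and 172 TPM in NT cells, which do not overlap, a difference of -0.68 ± 0.10 (limma adjusted p = 0.00039). The TPM are per gene, so an edit within the transcript is not visible in them, and protein was not measured. A pair of its relatives was also lower in TKO cells. TSPAN33, another TspanC8 member, was at 0.243 and 0.154 TPM in TKO cells, against 7.47 and 6.21 TPM in NT cells, nearly absent from the TKO line (adjusted p = 1.2e-06). TSPAN15, whose protein is known to direct ADAM10 to N-cadherin, was at 72.7 and 95.5 TPM in TKO cells, against 183 and 188 TPM in NT cells, or 2.2-fold lower in TKO cells (adjusted p = 0.0019). TSPAN15 lies on chromosome 10 as TSPAN14 does. The median over 347 genes of that whole chromosome was -0.03, and a part of position in either difference was not tested. TSPAN5 and TSPAN17, the remaining measured members, differed by 0.15 ± 0.11 and -0.04 ± 0.08 and did not pass the test. The proteases themselves did not pass it either. ADAM10 was at 118 and 108 TPM in TKO cells, against 138 and 111 TPM in NT cells, with overlapping libraries (-0.13 ± 0.22, adjusted p = 0.72), and ADAM17, the related sheddase, at 15.7 and 15.5 TPM in TKO cells, against 21.5 and 17.4 TPM in NT cells (adjusted p = 0.17). In all, of 7 tested TspanC8 and ADAM genes 0 were higher and 3 lower, with a median of -0.29. In NKO against NT cells on DLL4, 1 of the 7 was higher and 2 lower, beside 1520 and 1238 of all 13299 genes. In TKO against NKO cells 0 were higher and 2 lower, beside 12.9% and 9.91% of all genes. TSPAN10 stayed under 1 TPM.

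Among receptors and ligands, TKO cells on DLL4 had less JAG1 and more DLL4 message. JAG1, a ligand that in endothelium can oppose DLL4 signalling, was at 27.5 and 24.9 TPM in TKO cells, against 82.96 and 70.2 TPM in NT cells, or 2.92-fold lower in TKO cells (-1.51 ± 0.17, limma adjusted p = 6.1e-05). The DLL4 gene was at 59.1 and 62.6 TPM in TKO cells, against 45.6 and 40.7 TPM in NT cells. Its TKO libraries were both above the NT ones (0.49 ± 0.13, adjusted p = 0.017), but the call ended without NT library 3 (adjusted p = 0.127), TKO library 2 (0.0643) or TKO library 3 (0.112). JAG2 was low, at 1.65 and 2.46 TPM in TKO cells, against 0.883 and 0.848 TPM in NT cells, and its call (adjusted p = 0.042) ended without any 1 of the 4 libraries (adjusted p = 0.0505 to 0.264). NOTCH1, the main receptor of this family in arterial endothelium, was at 23.8 and 21.6 TPM in TKO cells, against 31.5 and 24.7 TPM in NT cells and did not pass the test (-0.29 ± 0.16, adjusted p = 0.23). NOTCH2, NOTCH4, DLL1 and DLL3 had differences between -0.59 and -0.37, none called, and NOTCH3 stayed below the filter. Of 8 tested members 2 were higher and 1 lower, with a median of -0.40, and 1 of the 8 was called without NT library 3, TKO library 2 or TKO library 3.

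Among the modifiers of Notch signalling MFNG differed most. It encodes Manic Fringe, a glycosyltransferase that extends sugars on Notch receptors and changes which ligands they answer to. MFNG transcripts stood at 149 and 132 TPM in TKO cells, against 31.5 and 27.6 TPM in NT cells, or 4.75-fold higher in TKO cells (2.21 ± 0.09, limma adjusted p = 7.5e-08). The sister fringe LFNG was at 5.38 and 4.04 TPM in TKO cells, against 4.61 and 5.27 TPM in NT cells, with overlapping libraries (adjusted p = 0.88). RFNG, the third fringe, was 0.42 higher (adjusted p = 0.028), a call that ended without any 1 of the 4 libraries (adjusted p = 0.0523 to 0.17). NUMB, an endocytic adaptor known as a Notch inhibitor, was at 54.6 and 56.6 TPM in TKO cells, against 37.5 and 32.02 TPM in NT cells (0.67 ± 0.12, adjusted p = 0.0014). DTX3, of the Deltex ubiquitin ligase family, was at 0.259 and 0.339 TPM in TKO cells, against 2.07 and 2.03 TPM in NT cells (adjusted p = 0.00052). The xylosyltransferase genes XXYLT1 (0.33) and GXYLT1 (-0.42), whose enzymes add sugars to the same receptor repeats, were called in opposite directions. XXYLT1 lost its call without NT library 3 (adjusted p = 0.121) or TKO library 2 (0.123), and GXYLT1 without NT library 2 (0.267), TKO library 2 (0.0706) or TKO library 3 (0.268), with the replicate block (0.0636) and in the refit without chromosomes 11, 18 and 21 (0.0786). The other 10 of 16 tested modifiers, among them POFUT1, MIB1 and ITCH, did not pass the test. In all 4 were higher and 2 lower, with a median of 0.01, and 2 and 1 without TKO library 2.

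In the cleavage and transcription machinery 1 gene was called. PSEN2, a catalytic subunit of gamma-secretase, was at 21.9 and 21.6 TPM in TKO cells, against 12.5 and 9.63 TPM in NT cells (0.93 ± 0.14, limma adjusted p = 0.00061) and was the only one of 14 tested genes called. Of the other subunits, NCSTN, APH1A and PSENEN differed by 0.00, 0.13 and -0.03, and RBPJ, at 8.63 and 8.81 TPM in TKO cells, against 10.95 and 10.4 TPM in NT cells, by -0.27 ± 0.17, none called. The median of the 14 was 0.02.

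The Notch target genes split into those lower, those higher and those not called. HES4, a repressor of the HES family, was at 45.1 and 41.5 TPM in TKO cells, against 123 and 110.0 TPM in NT cells, 2.69-fold lower in TKO cells (-1.41 ± 0.19, limma adjusted p = 0.00023). HES1, the best known direct target, was at 50.3 and 53.6 TPM in TKO cells, against 81.2 and 78.9 TPM in NT cells (-0.62 ± 0.12, adjusted p = 0.0032). For both genes the 2 TKO libraries lay well below the 2 NT libraries. HEY2, a repressor linked to arterial fate, was at 63.3 and 56.4 TPM in TKO cells, against 58.1 and 54.8 TPM in NT cells, with overlapping libraries (0.08 ± 0.11, adjusted p = 0.65). The 250 bases upstream of the transcription start of these 3 genes, from RefSeq on GRCh38.p14, are shown because the genes share the RBPJ core TGGGAA there while their differences do not go together. Capitals mark TGGGAA or its reverse complement, searched on both strands. HES4 is read on the minus strand (chr1:1000098-1000347), and HES1 (chr3:194135898-194136147) and HEY2 (chr6:125749382-125749631) on the plus strand.
HES4: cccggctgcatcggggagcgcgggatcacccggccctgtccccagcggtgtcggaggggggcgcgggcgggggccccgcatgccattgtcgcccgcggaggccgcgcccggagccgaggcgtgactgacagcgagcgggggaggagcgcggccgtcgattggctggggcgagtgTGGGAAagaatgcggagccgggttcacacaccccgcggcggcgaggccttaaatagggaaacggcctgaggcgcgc
HES1: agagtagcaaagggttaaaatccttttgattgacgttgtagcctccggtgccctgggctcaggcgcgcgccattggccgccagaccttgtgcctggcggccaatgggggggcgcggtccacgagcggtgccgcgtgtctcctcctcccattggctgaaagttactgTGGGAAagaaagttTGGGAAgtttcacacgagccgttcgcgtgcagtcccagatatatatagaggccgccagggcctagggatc
HEY2: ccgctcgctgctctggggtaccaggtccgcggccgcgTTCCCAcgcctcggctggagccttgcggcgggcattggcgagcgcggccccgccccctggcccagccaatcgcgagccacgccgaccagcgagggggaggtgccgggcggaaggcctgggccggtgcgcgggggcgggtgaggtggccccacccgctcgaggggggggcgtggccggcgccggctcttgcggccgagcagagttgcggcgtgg
HES1 holds 2 copies, the first bases of which are 84 and 70 before the start site, HES4 holds 1 and HEY2 holds 1 on the opposite strand. The same letters occur in 20.8% of 35116 promoter windows of this length in the RefSeq table, and in 5 of the 14 tested target genes that the table holds (CXCR4, HES1, HES4, HEY2 and LFNG). A match is a description of the sequence and not a measured binding site.

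Several targets tied to artery and guidance were low or near absent in the TKO line. GJA4, which encodes the arterial connexin Cx37, was at 0.0608 and 0.106 TPM in TKO cells, against 6.42 and 4.27 TPM in NT cells (limma adjusted p = 9.4e-06). UNC5B, a netrin receptor, was at 1.45 and 1.49 TPM in TKO cells, against 6.795 and 5.72 TPM in NT cells (-1.55 ± 0.17, adjusted p = 5.1e-05). TMEM100, a membrane protein induced by BMP and ALK1 signalling, was listed at 0 in both TKO libraries and at 1.83 and 1.24 TPM in NT cells (adjusted p = 0.00079). HES2 (-0.48) and HES6 (-0.70) were also called lower. HES2 lost the call without NT library 2 (adjusted p = 0.11) or TKO library 3 (0.0867), and HES6 without TKO library 3 (0.0649).

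Other targets were higher. CXCR4, a chemokine receptor of tip cells, was at 5.87 and 7.84 TPM in TKO cells and listed at 0 in both NT libraries (limma adjusted p = 4.7e-06). CCND1, which encodes cyclin D1 and lies on chromosome 11, was at 182 and 169 TPM in TKO cells, against 98.6 and 84.6 TPM in NT cells (0.93 ± 0.13, adjusted p = 0.00026). MYC, a growth regulator and Notch target in several tissues, was at 133 and 124 TPM in TKO cells, against 90.3 and 84.02 TPM in NT cells (0.55 ± 0.12, adjusted p = 0.0052). SOX17, an arterial transcription factor, was at 36.8 and 33.7 TPM in TKO cells, against 24.7 and 23.1 TPM in NT cells (0.54 ± 0.13, adjusted p = 0.0087), which was no longer called without NT library 3 (adjusted p = 0.0644) or TKO library 2 (0.0774). NRARP, a feedback inhibitor of Notch, was at 14.5 and 24.8 TPM in TKO cells, against 16.7 and 14.6 TPM in NT cells, with libraries that overlap (adjusted p = 0.42). EFNB2, the arterial ephrin, was at 14.5 and 10.4 TPM in TKO cells, against 11.8 and 10.4 TPM in NT cells, and HEY1 at 5.298 and 3.81 TPM in TKO cells, against 7.05 and 6.72 TPM in NT cells, and neither passed the test. In all, of 21 tested target genes 5 were higher, 8 lower and 8 not called, with a median of -0.33. HES5, HEYL, NOTCH3 and DTX1 lay below the filter.

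**Figure D3:**
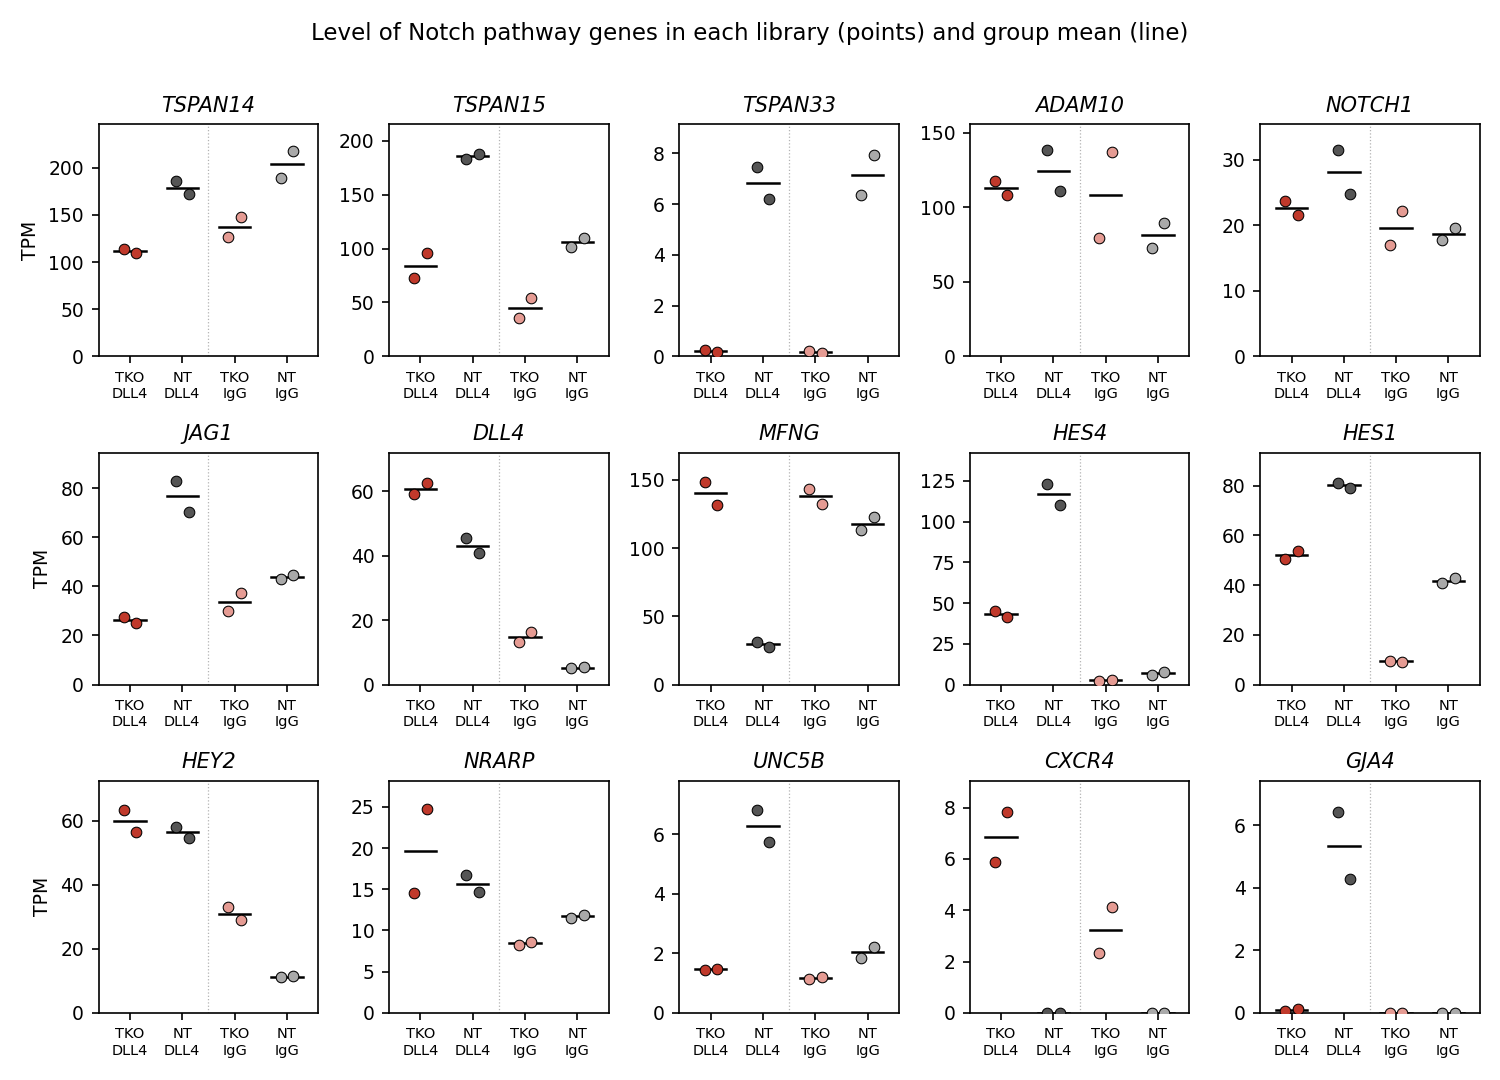
TPM of 15 genes of the Notch pathway in each library (points) and the group mean (line), for TKO and NT cells on DLL4 (left of the dotted line) and on IgG (right of it). TSPAN14, TSPAN15, TSPAN33, JAG1, HES4, HES1, UNC5B and GJA4 are lower in TKO than in NT cells on DLL4, MFNG and CXCR4 are higher, and the points of ADAM10 and NRARP overlap.

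The genes with the largest increases were low in the NT line. POSTN, a secreted matrix protein of remodelling tissue, was at 407 and 396 TPM in TKO cells, against 0.284 and 0.477 TPM in NT cells (limma adjusted p = 2e-10). TFPI2, a secreted inhibitor of serine proteases, was at 769 and 795 TPM in TKO cells, against 2.93 and 4.32 TPM in NT cells (adjusted p = 2.4e-06). AXL, a receptor tyrosine kinase of the TAM group and an ADAM10 substrate, was at 80.7 and 74.6 TPM in TKO cells, against 0.244 and 0.3198 TPM in NT cells (adjusted p = 1.7e-07). In each case both TKO libraries were far above both NT libraries. GIMAP7, a GTPase best known from lymphocytes, was at 54.3 and 55.4 TPM in TKO cells, against 0.1602 and 0.0523 TPM in NT cells, and RAB34, a GTPase of vesicle traffic and cilia, at 52.1 and 38.2 TPM in TKO cells, against 0.312 and 0.174 TPM in NT cells. IGFBP1, a secreted binder of insulin-like growth factors, was at 64.6 and 62.03 TPM in TKO cells, against 0.324 and 0.366 TPM in NT cells. COX7A1, the muscle form of a respiratory chain subunit, was at 59.7 and 52.8 TPM in TKO cells, against 0.602 and 1.66 TPM in NT cells. MEST, an imprinted gene, was at 39.6 and 48.7 TPM in TKO cells, against 1.28 and 0.234 TPM in NT cells. The other 7 genes with the largest increases were OCIAD2, SLC43A3, C1orf21, MGARP, FEZ1, GPAT2 and MT1E, and of these SLC43A3 and FEZ1 lie on chromosome 11. OCIAD2 was at 131 and 113 TPM in TKO cells, against 0.759 and 1.34 TPM in NT cells. GPAT2 was high in both edited lines, at 32.1 and 28.1 TPM in TKO cells and 30.6 and 33.4 TPM in NKO cells, against 0.317 and 0.115 TPM in NT cells. AXL, at 20.5 and 41.6 TPM in NKO cells, was also above its NT level there. So was C1orf21, at 72.8 and 72.3 TPM in TKO cells, 16.7 and 11.7 TPM in NKO cells and 1.35 and 0.645 TPM in NT cells. COX7A1 was not, at 0.207 and 0.856 TPM in NKO cells.

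Several of the genes that fell furthest were near 0 in TKO cells. DNER, a transmembrane protein with EGF repeats described as a Notch ligand in neural cells, was at 0.03496 and 0.147 TPM in TKO cells, against 111 and 99.7 TPM in NT cells (limma adjusted p = 1.9e-09). SCUBE1, a secreted and surface protein of endothelium and platelets, was at 0.0535 and 0.209 TPM in TKO cells, against 86.7 and 69.3 TPM in NT cells (adjusted p = 9.4e-09). RGS5, a regulator of G protein signalling, was at 2.88 and 3.18 TPM in TKO cells, against 221 and 186 TPM in NT cells, 67-fold lower in TKO cells (adjusted p = 4.5e-10). All 3 were below 4 TPM in both TKO libraries. The lipid regulators PPARG and ANGPTL4 were lower together. PPARG, a nuclear receptor for fatty acids, was at 0.0379 and 0.226 TPM in TKO cells, against 26.5 and 22.2 TPM in NT cells, and ANGPTL4, an inhibitor of lipoprotein lipase and a PPAR target, at 18.9 and 19.5 TPM in TKO cells, against 412 and 419.8 TPM in NT cells (adjusted p = 1.2e-08 and 1.2e-08). The trefoil peptides TFF3, at 10.2 and 2.86 TPM in TKO cells, against 405 and 413 TPM in NT cells, and TFF1, at 29.2 and 13.4 TPM in TKO cells, against 395 and 405 TPM in NT cells, were lower and lie on chromosome 21. IGFBP5, another binder of insulin-like growth factors, was at 12.4 and 3.01 TPM in TKO cells, against 274 and 208 TPM in NT cells. In TFF3 and IGFBP5 the TKO libraries differed from each other by more than 3-fold, and both stayed far below the NT libraries. VAMP8, a vesicle fusion protein, was at 0.329 and 0.701 TPM in TKO cells, against 42.04 and 39.3 TPM in NT cells, and FOXF1, a transcription factor of mesoderm and lung endothelium, at 1.69 and 0.691 TPM in TKO cells, against 37.7 and 30.8 TPM in NT cells. BDKRB2, the bradykinin receptor, was at 0.0755 and 0.102 TPM in TKO cells, against 17.2 and 16.3 TPM in NT cells, COLEC10 at 0 and 0.149 TPM in TKO cells, against 17.7 and 13.8 TPM in NT cells, and LRRC38 at 1.19 and 3.27 TPM in TKO cells, against 77.1 and 83.7 TPM in NT cells. In NKO cells on DLL4 COLEC10 was low as well, at 0.663 and 0.663 TPM, whereas BDKRB2 was at 8.88 and 9.45 TPM. The 5S ribosomal pseudogenes RNA5SP411 and RNA5SP413 were listed at 0 in both TKO libraries and at 26.8 and 35.01 and at 12.01 and 19.7 TPM in the NT libraries. They share sequence with other copies, so the assignment of their reads is uncertain.

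Of the 10 most abundant genes called higher, 7 lie on chromosome 11 (CD59, RPS3, CFL1, RPL27A, EEF1G, RPLP2 and RPS13) and RPL17 on chromosome 18. CD59, which shields cells from complement, was at 2915 and 2889 TPM in TKO cells, against 1782 and 1736 TPM in NT cells (0.72 ± 0.07, limma adjusted p = 1.8e-05). The other 6 of chromosome 11 differed by 0.51 to 0.61, close to the median of that chromosome. FKBP1A (0.38) and PTMA (0.29) lie elsewhere, and PTMA lost its call without NT library 3 (adjusted p = 0.0517). Of the 10 most abundant genes called lower, FN1 and SPARC kept their call in every setting tried. FN1, the fibronectin of the matrix, was at 506 and 646 TPM in TKO cells, against 2118 and 1937 TPM in NT cells (-1.82 ± 0.17, adjusted p = 1.4e-05). SPARC, a matrix-binding glycoprotein, was at 2076 and 2175 TPM in TKO cells, against 3416 and 3035 TPM in NT cells (-0.60 ± 0.11, adjusted p = 0.0015). The others, TMSB10, TMSB4X, RPL8, RPL24, RPL39, FTL, MYL6 and LGALS1, differed by -0.22 to -0.31, and each lost its call without TKO library 2 (adjusted p = 0.0608 to 0.21) and without at least 1 of the other 3 libraries (adjusted p = 0.053 to 0.132). LGALS1 turned to 0.11 under quantile normalisation. Ribosomal protein genes have many processed copies, so their values are uncertain in that respect.

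Arterial and venous genes moved both ways. Of 24 tested arterial genes, 10 were higher in TKO cells and 1 lower on IgG, with a median of 0.26, beside 15.2% and 12.4% of all genes. The difference between the coatings was called in 4 of the 24. On DLL4 8 were higher in TKO cells and 7 lower, with a median of -0.09. BMX, a kinase of large artery endothelium, was at 20.7 and 18.9 TPM in TKO cells, against 2.56 and 2.21 TPM in NT cells (2.62 ± 0.12, limma adjusted p = 1.2e-07). DEPP1, a FOXO-induced gene of arterial endothelium, was at 10.1 and 9.35 TPM in TKO cells, against 2.46 and 1.88 TPM in NT cells (adjusted p = 2e-05). Of 11 venous genes 2 were higher and 5 lower, with a median of -0.36. EPHB4, the venous ephrin receptor and an ADAM10 substrate, was at 65.8 and 67.8 TPM in TKO cells, against 159.8 and 149 TPM in NT cells (-1.20 ± 0.11, adjusted p = 1.9e-05). ADGRG6, an adhesion G protein-coupled receptor, was at 5.67 and 6.27 TPM in TKO cells, against 86.1 and 74.2 TPM in NT cells (adjusted p = 1.7e-07), and TLL1, a tolloid-like metalloprotease, at 0.545 and 0.7701 TPM in TKO cells, against 3.94 and 2.88 TPM in NT cells. Of 4 tested lymphatic genes 1 was higher and 2 lower. PDPN, the podoplanin of lymphatic endothelium, was at 6.63 and 8.18 TPM in TKO cells, against 108 and 96.5 TPM in NT cells (adjusted p = 7.2e-06), LYVE1, a hyaluronan receptor, at 71.9 and 72.01 TPM in TKO cells, against 126 and 109 TPM in NT cells, and SEMA3D at 2.41 and 1.76 TPM in TKO cells, against 0.1297 and 0.143 TPM in NT cells. PROX1, the defining lymphatic factor, stayed below the filter.

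Of the 18 tested tip cell and angiopoietin genes 9 were higher and 6 lower, with a median of 0.41. APLN, the apelin peptide of tip cells, was at 282 and 364 TPM in TKO cells, against 109.9 and 108 TPM in NT cells (1.55 ± 0.13, limma adjusted p = 8.6e-06). ANGPT2, an angiopoietin released by activated endothelium, was at 169 and 180.4 TPM in TKO cells, against 90.3 and 81.7 TPM in NT cells (1.01 ± 0.10, adjusted p = 2.6e-05). NKO cells on DLL4 had APLN at 547 and 508 TPM and ANGPT2 at 39.8 and 36.2 TPM. IGF2, an imprinted growth factor, went the other way, at 0.359 and 0.4796 TPM in TKO cells, against 12.9 and 13.1 TPM in NT cells (adjusted p = 1.9e-07), and it lies on chromosome 11. Of 15 VEGF and related ligands and receptors 4 were higher and 1 lower. VEGFB, on chromosome 11, was at 68.04 and 75.4 TPM in TKO cells, against 29.2 and 28.7 TPM in NT cells. PDGFB, which recruits pericytes, was at 88.8 and 95.5 TPM in TKO cells, against 63.02 and 62.3 TPM in NT cells (0.55 ± 0.09, adjusted p = 0.0011), and PGF at 112 and 124 TPM in TKO cells, against 89.9 and 85.6 TPM in NT cells. FGF2 was low, at 2.27 and 1.07 TPM in TKO cells, against 0.0605 and 0 TPM in NT cells. Of the 30 endothelial identity and junction genes 6 were higher and 6 lower, with a median of -0.10, and 5 and 1 without NT library 2, 3 and 3 without TKO library 2, and 4 and 2 without TKO library 3. Chromosomes 11, 18 and 21 hold 6 of the 30, with 2 of them called higher and 0 lower. The shares over all genes are 16.1% higher and 10.5% lower. MMRN1, a platelet and endothelial multimerin, was at 93.7 and 93.4 TPM in TKO cells, against 15.6 and 12.1 TPM in NT cells (2.68 ± 0.14, adjusted p = 3.1e-07). VWF, the von Willebrand factor, was at 37.02 and 49.2 TPM in TKO cells, against 16.3 and 9.599 TPM in NT cells (adjusted p = 0.0017), SOX18, an endothelial transcription factor, at 37.8 and 49.7 TPM in TKO cells, against 11.9 and 10.7 TPM in NT cells, and LYL1, a blood and endothelial factor, at 73.2 and 72.9 TPM in TKO cells, against 112 and 117 TPM in NT cells.

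Of 26 tested genes of DNA replication, 17 were higher in TKO cells on DLL4 and 0 lower, beside 16.1% and 10.5% of all genes, with a median of 0.54. TYMS, the thymidylate synthase, was at 252 and 237 TPM in TKO cells, against 99.4 and 92.8 TPM in NT cells (1.34 ± 0.07, limma adjusted p = 2.2e-07), and it lies on chromosome 18. E2F1, a transcription factor of S-phase entry, was at 33.9 and 34.5 TPM in TKO cells, against 16.3 and 15.4 TPM in NT cells (1.06 ± 0.10, adjusted p = 1.2e-05). FEN1, a flap endonuclease on chromosome 11, was at 87.3 and 86.5 TPM in TKO cells, against 57.5 and 50.2 TPM in NT cells, and MCM5, of the replicative helicase, at 103 and 96.9 TPM in TKO cells, against 60.5 and 52.5 TPM in NT cells. 3 of the 17 lie on chromosomes 11 and 18, and 14 of the 23 members elsewhere were higher as well. In NKO against NT cells on DLL4, 24 of the 26 were higher and 0 lower, with a median of 0.93. Over all 13299 genes that comparison called 1520 higher and 1238 lower. In TKO against NKO cells 0 of the 26 were higher and 13 lower, beside 12.9% and 9.91% of all genes. On IgG 8 of the 26 were higher in TKO than in NT cells and 0 lower, beside 15.2% and 12.4% of all genes, with a median of 0.03. The difference between the coatings was called in 0 of the 26. Over all genes limma called 70 such differences at an adjusted p under 0.05 and 2062 at an unadjusted p under 0.05.

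Of the mitosis genes 7 of 25 were higher and 0 lower, with a median of 0.22. UBE2C, a ubiquitin-conjugating enzyme of anaphase, was at 307 and 313 TPM in TKO cells, against 252 and 233 TPM in NT cells (0.35 ± 0.07, limma adjusted p = 0.0047). CDC20, CCNB1 and BIRC5 differed by 0.38, 0.28 and 0.38. UBE2C lost its call without NT library 3 (adjusted p = 0.0523), CDC20 without that library or TKO library 2 (0.0563 and 0.056), and CCNB1 and BIRC5 without either of these or TKO library 3 (0.0589 to 0.131). Over the list, without NT library 3, 0 of the 25 were called, without TKO library 2 there was 1, and without TKO library 3 there were 3, while the refit without chromosomes 11, 18 and 21 called 12. Among CDK inhibitors, D cyclins and MYC, 3 of 9 were higher and 3 lower. CDKN2B, which encodes the inhibitor p15, was at 17.1 and 15.3 TPM in TKO cells, against 45.4 and 42.7 TPM in NT cells (-1.39 ± 0.12, adjusted p = 8.3e-06). CDKN1A, which encodes p21, was at 175 and 180.4 TPM in TKO cells, against 308 and 289.8 TPM in NT cells (-0.75 ± 0.09, adjusted p = 8.4e-05), and CCND3 at 116 and 118 TPM in TKO cells, against 189.6 and 177 TPM in NT cells. NKO cells on DLL4 had CDKN2B at 13.5 and 15.8 TPM, CDKN1A at 169 and 193 TPM and CCND3 at 133 and 143 TPM. The wider set of 29 p53 targets had 3 higher and 7 lower, with a median of -0.14, and 4 to 5 calls in all when any 1 of the 4 libraries was left out. GADD45A, a stress gene, was at 51.7 and 49.8 TPM in TKO cells, against 95.9 and 85.1 TPM in NT cells, and TP53I3, a quinone oxidoreductase, at 94.3 and 99.3 TPM in TKO cells, against 136 and 127 TPM in NT cells, while DDB2, a DNA repair factor on chromosome 11, was at 121 and 129 TPM in TKO cells, against 80.9 and 75.6 TPM in NT cells.

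Matrix genes went both ways. Of 39 tested basement membrane and collagen genes 11 were higher and 14 lower, with a median of -0.15. Chromosomes 11, 18 and 21 hold 5 of the 39, with 3 of them called higher and 1 lower. The paired collagen IV genes COL4A1 and COL4A2, the network of the vascular basement membrane, were lower together. COL4A1 was at 163 and 194 TPM in TKO cells, against 1025 and 880.1 TPM in NT cells (-2.41 ± 0.11, limma adjusted p = 8.6e-08), and COL4A2 at 230.3 and 273 TPM in TKO cells, against 998 and 874 TPM in NT cells (-1.89 ± 0.10, adjusted p = 2.1e-07). NKO cells on DLL4 had COL4A1 at 453 and 497 TPM and COL4A2 at 483 and 539 TPM. Summed over the list, TPM were 8120 and 8370 in TKO cells, against 12600 and 11200 in NT cells, and 8070 and 8420 in NKO cells. Of 31 mesenchymal, contractile and YAP or TGF-beta target genes 8 were higher and 8 lower, with a median of -0.13. MYL9, a myosin light chain, was at 133 and 149 TPM in TKO cells, against 10.3 and 13.3 TPM in NT cells (3.48 ± 0.13, adjusted p = 2.8e-08). SNAI1, the Snail repressor, was at 9.604 and 10.9 TPM in TKO cells, against 48.5 and 49.99 TPM in NT cells (-2.16 ± 0.11, adjusted p = 1.7e-07), and TPM1, a tropomyosin, at 224 and 231 TPM in TKO cells, against 486 and 475 TPM in NT cells. Of 26 activin, BMP and ID genes 7 were higher and 7 lower, and 7 to 8 were called in all when any 1 library was left out. The secreted antagonist FST, at 29.03 and 29.8 TPM in TKO cells, against 1.97 and 2.08 TPM in NT cells, BMPER, a BMP-binding protein, at 17.2 and 11.2 TPM in TKO cells, against 0.723 and 0.581 TPM in NT cells, and BMP2 itself, at 45.4 and 38.4 TPM in TKO cells, against 8.95 and 7.86 TPM in NT cells, were all higher (adjusted p = 1e-07, 1.1e-06 and 2.5e-05), and the receptor gene ACVR1, at 18.7 and 16.6 TPM in TKO cells, against 37.5 and 34.5 TPM in NT cells, was lower.

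Of 24 coagulation and fibrinolysis genes tested, 4 were higher and 12 lower, with a median of -0.21, and 9 to 11 were lower when 1 library was left out. On IgG 8 were higher and 8 lower, beside 15.2% and 12.4% of all genes. PLAU, the urokinase protease, was at 98.3 and 91.5 TPM in TKO cells, against 347 and 290.4 TPM in NT cells (-1.73 ± 0.10, limma adjusted p = 3.6e-07). The thrombin and protease receptor genes F2RL2, at 1.71 and 1.33 TPM in TKO cells, against 16.3 and 14.2 TPM in NT cells, and F2RL3, at 2.74 and 3.45 TPM in TKO cells, against 15.8 and 15.1 TPM in NT cells, were lower too. TFPI2, given above, is the large exception. Of 39 tested genes at loci associated with coronary artery disease, a list that holds TSPAN14 itself, 4 were higher and 15 lower, with a median of -0.27. Over all genes 16.1% were higher and 10.5% lower. VAMP8, ANGPTL4, COL4A1 and COL4A2 had the smallest p among them. On IgG 6 of the 39 were higher and 13 lower, beside 15.2% and 12.4% of all genes. In NKO against NT cells on DLL4, 2 were higher and 13 lower, with a median of -0.19, beside 1520 and 1238 of all 13299 genes.

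Of 24 tested genes of cholesterol synthesis and other SREBP targets, 0 were higher and 16 lower, beside 16.1% and 10.5% of all genes, with a median of -0.47. INSIG1, an ER sensor of sterols, was at 42.9 and 41.7 TPM in TKO cells, against 108 and 96.7 TPM in NT cells (-1.25 ± 0.11, limma adjusted p = 1e-05). STARD4, a cholesterol carrier, was at 21.7 and 20.3 TPM in TKO cells, against 60.9 and 56.9 TPM in NT cells, and SQLE, the squalene epoxidase, at 76.4 and 83.3 TPM in TKO cells, against 129 and 118 TPM in NT cells. Leaving out any 1 of the 4 libraries left 11 to 13 calls, and on IgG 12 were lower and 1 higher, with a median of -0.23. The 3 members on chromosomes 11, 18 and 21 were not called. In NKO against NT cells on DLL4, 0 of the 24 were higher and 15 lower, with a median of -0.445. In TKO against NKO cells 3 were higher and 5 lower. Of 34 ATF4 and unfolded protein response genes, 13 were higher and 4 lower on IgG, with a median of 0.23, beside 15.2% and 12.4% of all genes. The difference between the coatings was called in 2 of the 34. On DLL4 4 were higher and 8 lower, with a median of -0.10. DDIT4, a stress-induced mTOR inhibitor, was at 10.9 and 12 TPM in TKO cells, against 104 and 90.7 TPM in NT cells (-2.98 ± 0.23, adjusted p = 3.8e-06), CHAC1 at 12.4 and 10.1 TPM in TKO cells, against 3.702 and 3.66 TPM in NT cells, PHGDH, the first enzyme of serine synthesis, at 13.5 and 7.62 TPM in TKO cells, against 37.9 and 28.3 TPM in NT cells, and STC2 at 82.3 and 78.5 TPM in TKO cells, against 46.7 and 51.3 TPM in NT cells. This list fell to 3 higher and 3 lower without NT library 2, 2 and 5 without TKO library 2, and 2 and 3 without TKO library 3.

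Metallothioneins are small proteins that bind zinc and copper, and their list also holds SLC30A1, a zinc exporter. Of 7 tested members of the list 5 were higher and 0 lower, with a median of 1.14. MT1E was at 74.1 and 78.6 TPM in TKO cells and listed at 0 in both NT libraries (limma adjusted p = 3.7e-10). MT1F, at 3.46 and 1.905 TPM, and MT1M, at 1.58 and 3.86 TPM, were likewise listed at 0 in both NT libraries. MT2A, the most abundant member, was at 904 and 893 TPM in TKO cells, against 678 and 673 TPM in NT cells (0.41 ± 0.06, adjusted p = 0.00058). The metallothionein genes are near-identical copies in 1 cluster on chromosome 16, so the split of reads among them is uncertain. The 250 bases upstream of MT2A (chr16:56608334-56608583, plus strand, RefSeq, GRCh38.p14) are shown because the known control element of the family is dense there. Capitals mark the core of the metal response element, TGCACNC or TGCGCNC, on either strand.
MT2A: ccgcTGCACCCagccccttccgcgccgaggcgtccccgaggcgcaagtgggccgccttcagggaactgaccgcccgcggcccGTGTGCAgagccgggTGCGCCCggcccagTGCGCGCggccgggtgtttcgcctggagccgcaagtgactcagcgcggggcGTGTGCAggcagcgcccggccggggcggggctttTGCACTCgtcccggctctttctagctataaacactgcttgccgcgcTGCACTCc
It holds 7 matches, none overlapping. At least 1 match occurs in 24.8% of all promoter windows of this length and at least 5 in 0.12%. The table holds 3 of the 7 tested members, and all 3 have a match. Binding of the metal-responsive factor was not measured.

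The remaining lists gave mixed counts. Of 18 tested ADAM10 substrates 8 were higher and 4 lower, with a median of 0.19, and 5 of the 8 lie on chromosomes 11, 18 and 21, so that the refit without those chromosomes called 3 higher and 4 lower. The counts were 4 and 3 without NT library 3, and 5 and 2 without TKO library 2. Beside AXL and EPHB4, MERTK, another TAM receptor, was at 11.8 and 8.998 TPM in TKO cells, against 1.42 and 1.77 TPM in NT cells, and APLP2, an amyloid precursor relative on chromosome 11, at 805 and 764 TPM in TKO cells, against 487 and 414 TPM in NT cells. Of 42 interferon response and antigen presentation genes 8 were higher and 3 lower, near the share over all genes, with 4 of the 8 on those chromosomes. BST2, the antiviral protein tetherin, was at 187 and 152 TPM in TKO cells, against 28.7 and 31.6 TPM in NT cells (2.44 ± 0.14, limma adjusted p = 5.4e-07), UBE2L6, of the ISG15 pathway on chromosome 11, at 72.4 and 63.2 TPM in TKO cells, against 13.2 and 12.4 TPM in NT cells, and ISG20, an RNA exonuclease, at 26.5 and 23.5 TPM in TKO cells, against 69.4 and 65.9 TPM in NT cells. This list fell to 3 higher and 2 lower without NT library 3, and to the same counts without TKO library 2. Of 24 NF-kB and inflammatory genes 5 were higher and 8 lower. IL1RL1, the receptor for the nuclear cytokine IL33, was at 47.5 and 37 TPM in TKO cells, against 2.48 and 2.17 TPM in NT cells, and IL33 itself at 2.58 and 2.24 TPM in TKO cells, against 14.5 and 14.1 TPM in NT cells, so receptor and ligand genes differed in opposite directions (adjusted p = 8.8e-07 and 2e-05). BCL2A1, an anti-apoptotic NF-kB target, was at 9.98 and 8.46 TPM in TKO cells, against 0.6203 and 0.6395 TPM in NT cells, and CSF3, a granulocyte growth factor, at 3.92 and 2.67 TPM in TKO cells, against 14.3 and 14.2 TPM in NT cells.

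Of 15 tested HOX genes 6 were higher and 1 lower, all in the HOXB cluster of chromosome 17. HOXB8 was at 89.7 and 89.1 TPM in TKO cells, against 4.45 and 3.02 TPM in NT cells (4.27 ± 0.14, limma adjusted p = 1e-08), and its neighbours HOXB7, at 69.1 and 73.6 TPM in TKO cells, against 30.3 and 30.3 TPM in NT cells, and HOXB6, at 65.6 and 67.9 TPM in TKO cells, against 43.96 and 41.4 TPM in NT cells, differed by less. HOXB13, at the far end of the cluster, was at 0.295 and 0.402 TPM in TKO cells, against 3.15 and 3.34 TPM in NT cells. Of 14 immediate early and shear-responsive factors 4 were higher and 2 lower, and 2 and 1 without TKO library 3. KLF2, the flow-induced factor, was at 93 and 93.9 TPM in TKO cells, against 41.8 and 44.5 TPM in NT cells (1.10 ± 0.17, adjusted p = 0.00054), FOSL1, on chromosome 11, at 174 and 179 TPM in TKO cells, against 64.98 and 64.4 TPM in NT cells, and JUNB at 13.6 and 13.1 TPM in TKO cells, against 22.8 and 24.7 TPM in NT cells. EGR1 (difference 1.10 ± 0.25, adjusted p = 0.0078) lost its call without TKO library 3 (adjusted p = 0.0638). Of 13 RGS genes 2 were higher and 4 lower. Beside RGS5, RGS2 was at 11.8 and 9.13 TPM in TKO cells, against 20.2 and 20.6 TPM in NT cells, RGS11 at 20.3 and 16.7 TPM in TKO cells, against 3.98 and 5.53 TPM in NT cells, and RGS16 at 3.46 and 2.42 TPM in TKO cells, against 0.739 and 0.444 TPM in NT cells. Of the 13 mitochondrially encoded genes limma called 0. Alone among the settings, quantile normalisation called 1 higher and a fit of only the libraries compared called 1 lower.

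Markers of other cell types moved with the line in places. Of 11 smooth muscle and pericyte markers 3 were tested and 6 stayed under 0.5 TPM, and their summed TPM were 103 and 103 in TKO cells, against 298 and 257 in NT cells, a sum made up mostly of RGS5 and SMTN, which went opposite ways. RGS5 was lower, as given above, whereas SMTN, a smooth muscle cytoskeletal protein, was at 98.3 and 97.2 TPM in TKO cells, against 75.01 and 69.05 TPM in NT cells (0.44 ± 0.10, limma adjusted p = 0.0066), a call lost without NT library 3 (adjusted p = 0.0607). Of 10 fibroblast markers 2 were tested, with sums of 4.72 and 4.67 TPM in TKO cells, against 3.19 and 3.08 TPM in NT cells, and COL1A2 at 2.18 and 2.505 TPM in TKO cells, against 0.225 and 0.104 TPM in NT cells. Of 16 leukocyte markers 4 were tested and 11 stayed under 0.5 TPM, with sums of 60.9 and 69.7 TPM in TKO cells, against 56.2 and 56.4 TPM in NT cells. The 2 called went opposite ways, CD14, at 6.08 and 9.65 TPM in TKO cells, against 0.141 and 0.461 TPM in NT cells, and CORO1A, at 5.41 and 4.19 TPM in TKO cells, against 9.82 and 9.54 TPM in NT cells (-0.89 ± 0.14, limma adjusted p = 0.00056). LCP1 differed by -0.55 (adjusted p = 0.067) and was called lower in 4 other settings. Of 12 epithelial markers 4 were tested, with sums of 1020 and 929 TPM in TKO cells, against 867 and 859 TPM in NT cells. KRT19, a keratin, was at 375 and 298 TPM in TKO cells, against 65.6 and 63.8 TPM in NT cells, and CLDN7, a claudin, at 14.2 and 15.03 TPM in TKO cells, against 2.69 and 1.81 TPM in NT cells, and both were called. The keratins KRT8 and KRT18 differed by -0.41 and -0.34 and were not called (limma adjusted p = 0.43 and 0.08), but with the replicate block, and with only the libraries compared, both were called lower, which gives 2 higher and 2 lower. A part of other cells in any result was not tested, and in bulk RNA fewer cells of a type and less RNA per cell cannot be told apart.

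**Figure D4:**
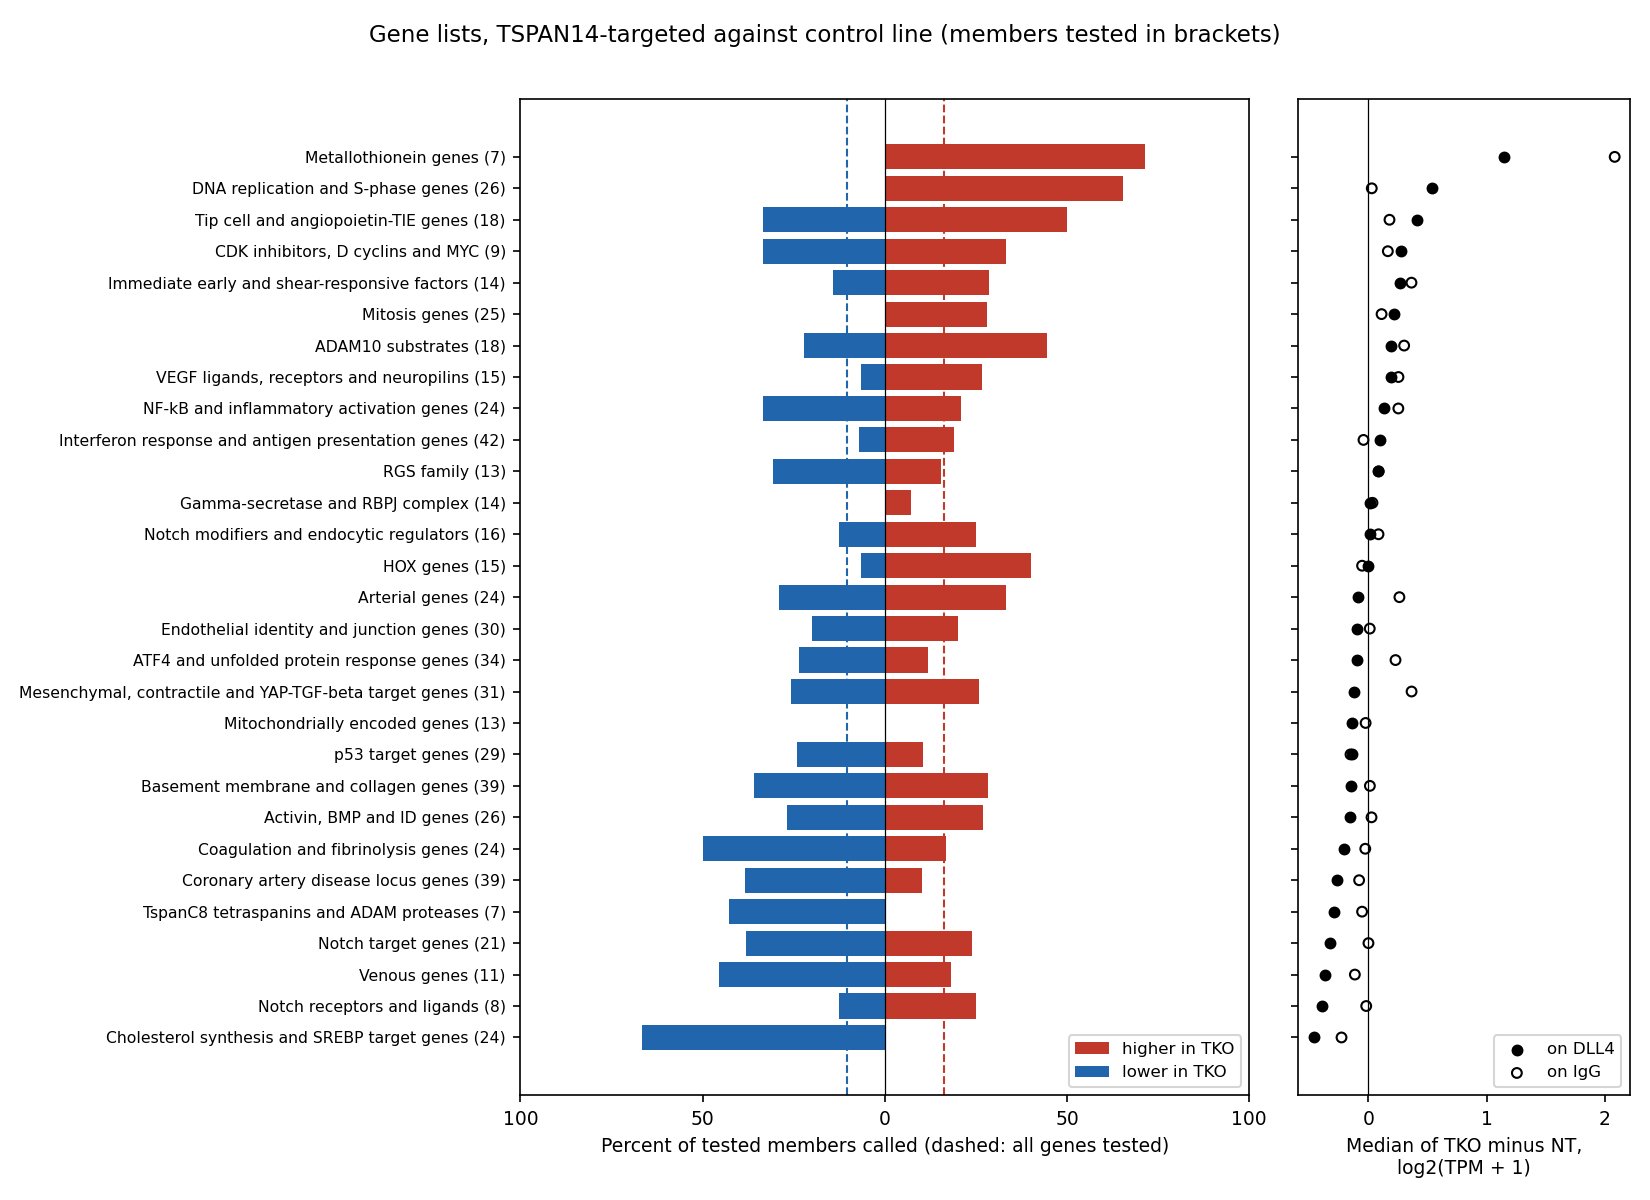
Left, percent of the tested members of each list called higher (red, to the right) or lower (blue, to the left) in TKO cells on DLL4, with dashed lines at 16.1% and 10.5%, the shares over all genes tested. Right, the median TKO minus NT difference of the list on DLL4 (filled) and on IgG (open); replication genes and metallothioneins lie at the top and cholesterol genes at the bottom.

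Most of the line difference was also present on IgG, where the 2 lines had other libraries. On IgG 3666 genes were called (27.6%), 2019 higher in TKO cells (15.2%) and 1647 lower (12.4%), and 2424 without IgG NT library 3. Of the 2147 genes higher on DLL4, 1408 were called higher on IgG, which is 65.6% of the DLL4 calls and 69.7% of the IgG calls, and 14 were called lower. Of the 1396 lower on DLL4, 867 were called lower on IgG (62.1% and 52.6%) and 6 higher. Of the 1086 calls of at least 2-fold on DLL4, 907 (83.5%) were called in the same direction on IgG and 3 in the opposite one. POSTN, TFPI2, AXL, RAB34, DNER, SCUBE1, RGS5 and VAMP8 were far apart on IgG too. On IgG POSTN was at 299.6 and 229 TPM in TKO cells, against 0.394 and 0.08496 TPM in NT cells, DNER at 0 and 0.0381 TPM in TKO cells, against 63.1 and 63.9 TPM in NT cells and RGS5 at 2.55 and 2.85 TPM in TKO cells, against 136 and 144 TPM in NT cells. A call on one coating only is no sign of a difference between them, which was tested directly.

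The line difference itself depended on the coating in 70 genes (0.526%). With its sign kept, TKO minus NT was higher on DLL4 than on IgG in 26 of them (0.196%) and lower in 44 (0.331%). Leaving out IgG TKO library 2 gave 76 genes, and leaving out any 1 of the other 7 libraries gave 8 to 28. MFNG had the smallest adjusted p. On IgG its level was 144 and 133 TPM in TKO cells, against 113 and 123 TPM in NT cells, close together, whereas on DLL4, as given above, the NT libraries were low. The difference of differences was 1.99 ± 0.13 (limma adjusted p = 0.0002). HES1 and HEY2 also depended on the coating, in opposite ways. On IgG HES1 was at 9.58 and 9.07 TPM in TKO cells, against 40.7 and 42.6 TPM in NT cells, so its gap was wider there than on DLL4 (difference of differences 1.43 ± 0.17, adjusted p = 0.0075). HEY2 was at 32.99 and 29.1 TPM in TKO cells, against 11.1 and 11.5 TPM in NT cells on IgG, higher in TKO cells, whereas on DLL4 the libraries overlapped (-1.30 ± 0.15, adjusted p = 0.0075). Both calls were narrow, since HES1 lost its own without IgG NT library 3 (adjusted p = 0.0504) or DLL4 TKO library 3 (0.0531), and HEY2 without DLL4 TKO library 3 (0.0531). HES4, at 2.42 and 2.82 TPM in TKO cells, against 6.14 and 7.56 TPM in NT cells on IgG, was lower in TKO cells on both coatings, and its 2 differences were not called apart (-0.30 ± 0.27, adjusted p = 0.64).

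Other genes depended on the coating too. IL33 was at 1.25 and 0.543 TPM in TKO cells, against 0.304 and 0.333 TPM in NT cells on IgG, with values under 2 TPM in all 4 libraries (-2.67 ± 0.29, limma adjusted p = 0.0075). CDKN2B was at 11.9 and 12.7 TPM in TKO cells, against 10.03 and 11.8 TPM in NT cells on IgG, overlapping, and lower in TKO cells on DLL4 (-1.55 ± 0.17, adjusted p = 0.0075). MFNG, IL33 and CDKN2B kept this call in every setting in which they were tested. ACP5, an acid phosphatase, was at 0.386 and 0.338 TPM in TKO cells, against 1.702 and 1.41 TPM in NT cells on IgG and at 1.72 and 1.71 TPM in TKO cells, against 33.8 and 22.8 TPM in NT cells on DLL4 (-2.50 ± 0.28, adjusted p = 0.0075), a call lost with a pseudocount of 0.1 (adjusted p = 0.0802). GJA4 was listed at 0 in all 4 IgG libraries of these lines. JAG1, at 30.1 and 37.2 TPM in TKO cells, against 42.9 and 44.6 TPM in NT cells on IgG, differed by less there than on DLL4, and the difference did not pass the test (-1.13 ± 0.24, adjusted p = 0.072). PTGS2, the inducible cyclooxygenase, was at 7.85 and 9.14 TPM in TKO cells, against 2.31 and 3.51 TPM in NT cells on IgG and at 1.86 and 1.62 TPM in TKO cells, against 6.59 and 5.795 TPM in NT cells on DLL4, opposite in direction (-2.69 ± 0.46, adjusted p = 0.029), but that call ended when any 1 of the 8 libraries was left out (adjusted p = 0.0554 to 0.131), as did its call on DLL4 without NT library 2 (0.055) or TKO library 3 (0.0528).

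**Figure D5:**
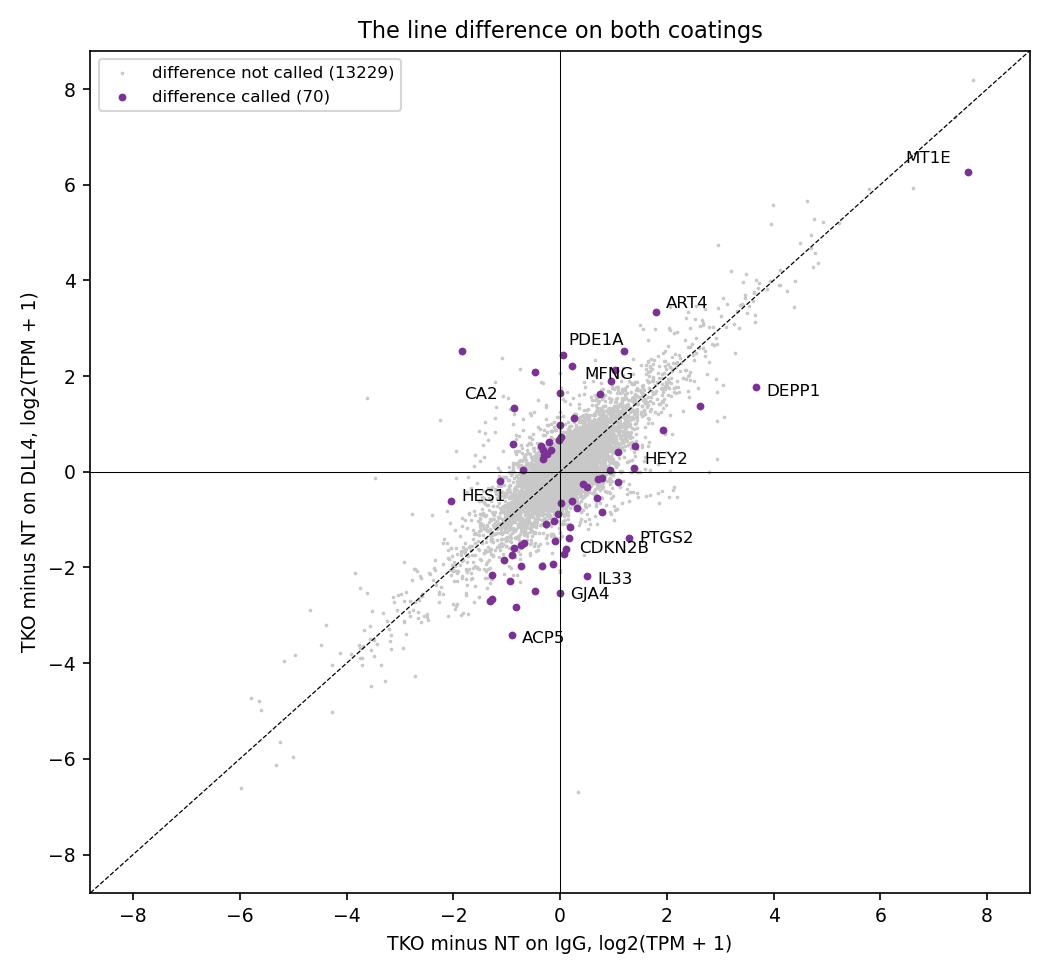
TKO minus NT difference of log2(TPM + 1) on IgG (horizontal) and on DLL4 (vertical), 1 point per tested gene, with the dashed line at equal values. Purple points are the 70 genes whose difference depended on the coating; MFNG, PDE1A and CA2 lie above the line, and IL33, GJA4, ACP5 and PTGS2 below it.

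Against the other edited line on the same coating, 3039 genes were called (22.9%), 1721 higher in TKO than in NKO cells (12.9%) and 1318 lower (9.91%). The count was 1670 without TKO library 2, 1735 without TKO library 3 and 1828 without NKO library 1. This comparison shares the TKO libraries with the main one. It varied by chromosome too, with TKO minus NKO medians of 0.52, 0.37 and 0.41 on chromosomes 11, 18 and 21. On chromosome 8 the windows from 614746 to 70669174 had TKO minus NKO medians of 0.41 to 0.55. Their NKO minus NT medians were -0.58 to -0.37. The refit without chromosomes 11, 18 and 21 called 2160 genes, 1243 higher in TKO than in NKO cells and 917 lower. TSPAN14 was at 113 and 109 TPM in TKO cells and 174 and 177 TPM in NKO cells (-0.65 ± 0.10, limma adjusted p = 0.00075). Several Notch targets were higher in the TSPAN14-targeted than in the NOTCH1-targeted line. HES4 was at 45.1 and 41.5 TPM in TKO cells and 6.28 and 9.19 TPM in NKO cells (2.36 ± 0.19, adjusted p = 1e-05). HEY2 was at 63.3 and 56.4 TPM in TKO cells and 23.2 and 21.1 TPM in NKO cells (1.40 ± 0.11, adjusted p = 8.9e-06). The DLL4 gene, at 59.1 and 62.6 TPM in TKO cells against 9.75 and 11.9 TPM in NKO cells, and EFNB2, at 14.5 and 10.4 TPM in TKO cells against 0.0158 and 0.131 TPM in NKO cells, were also higher in TKO cells (adjusted p = 7.4e-07 and 5.3e-07). HES1, at 50.3 and 53.6 TPM in TKO cells and 51.8 and 63.5 TPM in NKO cells, did not pass the test (-0.14 ± 0.12, adjusted p = 0.46). Of the 21 tested targets 8 were higher in TKO than in NKO cells and 1 lower, with a median of 0.39.

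Several of the same genes had the largest differences between the edited lines. MT1E, GIMAP7, RAB34, COX7A1 and STEAP1, a metalloreductase, were at 38.2 TPM or more in both TKO libraries and under 1 TPM in both NKO libraries. TFPI2 was at 769 and 795 TPM in TKO cells and 16.5 and 55.96 TPM in NKO cells, and SERPINB2, an inhibitor of urokinase on chromosome 18, at 257 and 162 TPM in TKO cells and 8.85 and 4.23 TPM in NKO cells. DNER, SCUBE1, VAMP8, PDPN, LRRC38 and TNFRSF6B, a decoy receptor, were lower in TKO cells than in NKO cells, with differences of -3.79 to -5.76. TNFRSF6B was listed at 0 in both TKO libraries, so its value depends on the added 1. FABP5, a fatty acid-binding protein, and G0S2, a lipolysis inhibitor, set the NKO line apart instead. FABP5 was at 0.133 and 0.5004 TPM in TKO cells, 29.7 and 39.2 TPM in NKO cells and 0.537 and 0.108 TPM in NT cells, so TKO and NT libraries overlapped. For G0S2 the values were 0 and 0 TPM in TKO cells, 20.8 and 15.7 TPM in NKO cells and 0 and 0.0773 TPM in NT cells.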

How the data were processed

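The deposited values are TPM per gene symbol for 12 libraries in 6 groups of 2. Per the submitters' processing notes the authors used kallisto and edgeR with the build hg38, with neither versions nor annotation given in the sources used here. Column names number NT and TKO libraries 2 and 3, and NKO libraries 1 and 2, whereas the labels number each group's libraries 1 and 2, so each group's columns were taken as its libraries and are named here by column number. Library totals were 974989 to 977130 TPM. A TPM table keeps no depth, so no counting interval or detection floor is given.

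Genes with at least 1 TPM in at least 2 libraries (13299 of 35587) were analysed as log2(TPM + 1), with a pseudocount of 1, by limma 3.58.1 in R 4.3.3. The fit took 1 mean per group over all 12 libraries, with empirical Bayes moderation and a variance trend. Tests were two-sided, and p-values were adjusted after Benjamini and Hochberg over all genes tested, at a threshold of 0.05. It had 6 residual degrees of freedom, 10.8 after moderation. Errors of differences are standard errors and n is 2 libraries per group throughout. The fit was tested on simulated data. GENCODE 29 (GRCh38) placed 35354 of the symbols, and promoters come from RefSeq. Named genes are TSPAN14, NOTCH1, the measured Notch pathway genes, the 15 largest differences (group mean of at least 5 TPM, no overlap) and 10 most abundant calls per direction, up to 4 genes of each other list by smallest p, and for the coating difference and TKO against NKO the 8 largest per direction. A few genes that these rules name are not reported here. PECAM1, CDH5 and PTPRC are from the cell type markers. The members, lists and alternatives were chosen with earlier results of these data known. Alternatives were another pseudocount, other filters, rescaling, quantile normalisation, a replicate block, no variance trend, only the libraries compared, each library left out, and, added later, chromosomes 11, 18 and 21 left out. Figures were drawn with matplotlib 3.10.9.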

Additional observations from a re-analysis of the deposited data

Results flagged for a closer look

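The TKO minus NT difference on DLL4 was tested against that on IgG, and among the genes named by the rule 25 had a difference between coatings with a limma adjusted p under 0.05. The values are differences of differences of log2(TPM + 1), DLL4 minus IgG. Their sign does not say on which coating the gap between the lines was wider. HES1 has a positive value and a narrower gap on DLL4, whereas ACP5 and CDKN2B have negative values and a wider gap there. Positive values were those of PDE1A (2.39), CA2 (2.2), MFNG (1.99), ART4 (1.55), KRT80 (1.45), HES1 (1.43), GIMAP6 (1.32), PDE2A (1.09), PDGFB (0.90) and CDC20 (0.62). Negative values were those of PTGS2 (-2.69), IL33 (-2.67), GJA4 (-2.53), ACP5 (-2.50), AC009093.8 (-2.02), CCDC102B (-1.99), DEPP1 (-1.91), RND1 (-1.79), CDKN2B (-1.55), F2RL2 (-1.38), MT1E (-1.36), STARD4 (-1.35), HEY2 (-1.30), SNAI1 (-0.88) and PLAU (-0.83). PDE1A, a cyclic nucleotide phosphodiesterase, was on DLL4 at 10.8 and 6.42 TPM in TKO cells, against 0.485 and 1.01 TPM in NT cells, and on IgG at 0.0831 and 0.149 TPM in TKO cells, against 0.0274 and 0.136 TPM in NT cells. CA2, a carbonic anhydrase, was on DLL4 at 13.01 and 7.69 TPM in TKO cells, against 3.21 and 3.52 TPM in NT cells, and on IgG at 20.5 and 13 TPM in TKO cells, against 33.1 and 28.1 TPM in NT cells. RND1, a small GTPase that loosens adhesion, was on DLL4 at 5.499 and 4.77 TPM in TKO cells, against 16.2 and 22.7 TPM in NT cells, and on IgG at 1.17 and 0.864 TPM in TKO cells, against 0.807 and 1.04 TPM in NT cells. DEPP1 was on IgG at 12.03 and 14.3 TPM in TKO cells, against 0.0771 and 0.125 TPM in NT cells, and PDGFB at 63.4 and 68.9 TPM in TKO cells, against 79.3 and 90.3 TPM in NT cells. MT1E was listed at 0 in both NT libraries on DLL4 and was at 207 and 206 TPM in TKO cells, against 0 and 0.0888 TPM in NT cells on IgG, and GJA4 was listed at 0 in all 4 IgG libraries, so their values depend on the added 1. So does that of ART4, which was on IgG at 2.201 and 2.83 TPM in TKO cells, against 0.0101 and 0.0101 TPM in NT cells, and whose difference of differences turned to -0.738 with a pseudocount of 0.1. Of the 25 genes 22 lost the call under at least 1 setting, and MFNG, IL33 and CDKN2B kept it under all in which they were tested.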

How the results depend on the processing

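Of the 171 named genes called on DLL4, 146 kept call and direction under every setting in which they were tested, 25 lost the call under at least 1, and LGALS1 turned to 0.114 under quantile normalisation. A setting that removed a gene, by its filter or its chromosome, was not counted for that gene. Of the 51 named genes not called on DLL4, 10 gained a call under at least 1 setting. Under quantile normalisation ADAM17 (-0.37, limma adjusted p = 0.0269), HEY1 (-0.57, 0.04) and EOGT (-0.47, 0.0404) were called lower. With only the libraries compared DLL1 was called lower (-0.59, 0.0409). NRARP and MIB2 gained a call only with 1 library left out. The count on DLL4 ranged from 2315 to 2653 when 1 library was left out, that on IgG from 2424 to 3436, the coating difference from 8 to 76, and TKO against NKO from 1670 to 2096. A fit of only the libraries compared called 2245 genes on IgG. The coating difference counted 108 genes when a mean of 5 TPM was required and 141 under quantile normalisation, and ART4 turned to -0.738 there with a pseudocount of 0.1. The cause was not tested. The share of calls higher in TKO on DLL4 was 54.8% to 67.8% with 1 library left out, and 51.0% under quantile normalisation. With the column number as a replicate block, 3653 genes were called on DLL4, 3793 on IgG, 93 for the coating difference and 2316 for TKO against NKO. Deviations of same-numbered libraries correlated at 0.0699 between TKO and NT on DLL4, at -0.0411 to 0.0902 over the pairs of TKO and NT groups, and at 0.279 between the NKO groups. With 2 libraries a group and no label that ties the numbers to a shared source, the block was not taken as the design. The unknown depth limits what can be said of genes near 1 TPM: at a pseudocount of 0.1 the value of 23 called named genes grew by over 1.5 times and 0 reversed. With 2 libraries a group, a leave-one-out fit assumes that the lone library varies like the other groups.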

Other observations

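KPNA2P2, a pseudogene symbol, took 0.280% to 5.61% of the TPM of a library. AC114801.3 was at 0 and 8.05 TPM in TKO cells, against 757 and 128 TPM in NT cells, on DLL4, and did not pass the test (limma adjusted p = 0.07), and the libraries of each line lay far apart.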
